A study of Mus musculus with 7 samples.

Results

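Genes that act in G2 and mitosis were followed in blood stem cells sorted from the mouse fetal liver. The list held 35 genes with known roles in this phase, and 34 of them were measured among 12393 genes on the arrays. Ccnb1, the gene of cyclin B1, had no probe set of its own in the annotation used and was not analysed here. Each gene was read from 1 probe set, that of highest mean level among those assigned to it alone, and levels are log2 values of the deposited intensities. The series holds 3 samples from embryos with both copies of the TFIIAα-β gene in the non-cleavable form (TFIIAα-βnc/nc, TFIIA nc/nc from here on) and 4 samples from wild-type embryos. All were collected at embryonic day 14.5 from matings of nc/+ parents, and no treatment was given. A sample held the liver cells of 2, 2 and 4 TFIIA nc/nc embryos and of 1, 1, 4 and 3 wild-type embryos, littermates wherever embryos were combined. Cells lacking lineage antigens and bearing CD150, c-Kit and Sca-1 were taken through a pair of sorting rounds. The labels call the samples biological replicates, name no strain, and do not say whether the genotypes shared litters or sorting days.

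Entry into mitosis is driven by Cdk1 bound to cyclins A and B, which the Aurora and Polo kinases reinforce. Chromosomes are then held by kinetochores on a spindle of microtubules and motor proteins, a checkpoint waits until all are attached, and the anaphase-promoting complex ends the phase by marking cyclin B and securin for destruction. The genes are transcribed in G2 through the MuvB complex with B-Myb and FoxM1, and through NF-Y at CCAAT boxes. MuvB acts at a short element called the cell cycle genes homology region (CHR) near the start site. Fetal liver stem cells divide actively, unlike most of those in the adult marrow. The series holds no adult marrow, so transcripts of this phase could not be compared with it.

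Most of the promoters held the letters of these elements. RefSeq promoter windows of GRCm38.p6, from 250 bases before to 50 after the first listed start of each gene, were found for 30 of the 35 genes and searched on both strands for the CHR letters TTTGAA, for CCAAT and for TATAAA, the core of the TATA box to which TBP and TFIIA bind. TTTGAA stood in 22 of 30 windows, 73.3%, against 13% of the windows of all measured genes and 18.1% of all windows in the table. CCAAT stood in 23 of 30, 76.7%, against 38.1% and 37.9%. Both motifs stood in 19 of 30, 63.3%, against 5.16% of measured genes. TATAAA stood in 1 of 30 windows, 3.33% against 10.1% of measured genes. That window was of Kif2c, with the match at position −228 relative to the start. No TTTGAA match overlapped a CCAAT match in these windows. In windows of 37 genes of S phase and DNA replication, TTTGAA stood in 10.8%, CCAAT in 56.8% and TATAAA in 5.41%. Such a match is a string of letters, not a measured binding site.

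Sequences are shown for 8 of the genes, namely Cdk1, Cdc20, Ube2c, Top2a and Mki67 as central genes of their steps, with Ndc80, Kif23 and Nusap1. Of the measured genes, Ndc80, Kif23 and Nusap1 had the smallest unadjusted limma p. The 200 bases before the start are given for each. They lie at chr10:69352913-69353112 (minus strand) for Cdk1, chr4:118437344-118437543 (minus strand) for Cdc20, chr2:164769729-164769928 (plus strand) for Ube2c, chr11:99024190-99024389 (minus strand) for Top2a, chr7:135716380-135716579 (minus strand) for Mki67, chr9:61946800-61946999 (minus strand) for Kif23, chr17:71526858-71527057 (minus strand) for Ndc80 and chr2:119618098-119618297 (plus strand) for Nusap1. Capitals mark TTTGAA and CCAAT on either strand, so TTCAAA and ATTGG are the same motifs read on the other strand.
Cdk1: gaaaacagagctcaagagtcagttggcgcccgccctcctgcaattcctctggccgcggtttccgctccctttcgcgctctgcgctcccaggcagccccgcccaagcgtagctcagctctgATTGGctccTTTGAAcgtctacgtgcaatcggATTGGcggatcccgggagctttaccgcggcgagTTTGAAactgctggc
Cdc20: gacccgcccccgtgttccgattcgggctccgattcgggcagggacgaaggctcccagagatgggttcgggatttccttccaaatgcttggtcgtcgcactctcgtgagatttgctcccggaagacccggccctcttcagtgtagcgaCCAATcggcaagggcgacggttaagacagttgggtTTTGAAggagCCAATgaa
Ube2c: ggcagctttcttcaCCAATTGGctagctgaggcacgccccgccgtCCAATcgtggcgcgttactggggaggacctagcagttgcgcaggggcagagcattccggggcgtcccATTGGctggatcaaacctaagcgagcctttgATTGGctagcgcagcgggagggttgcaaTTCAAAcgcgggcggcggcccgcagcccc
Top2a: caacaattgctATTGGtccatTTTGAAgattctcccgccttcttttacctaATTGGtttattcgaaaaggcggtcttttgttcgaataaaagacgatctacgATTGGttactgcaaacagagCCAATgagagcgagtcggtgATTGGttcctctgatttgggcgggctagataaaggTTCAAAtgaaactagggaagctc
Mki67: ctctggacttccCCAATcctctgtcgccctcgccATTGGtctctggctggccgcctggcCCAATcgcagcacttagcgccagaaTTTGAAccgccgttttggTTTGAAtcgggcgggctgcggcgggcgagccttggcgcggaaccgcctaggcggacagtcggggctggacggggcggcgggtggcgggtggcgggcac
Kif23: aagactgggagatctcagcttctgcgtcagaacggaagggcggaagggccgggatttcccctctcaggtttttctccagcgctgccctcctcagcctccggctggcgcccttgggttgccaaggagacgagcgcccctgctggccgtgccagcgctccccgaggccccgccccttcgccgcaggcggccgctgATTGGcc
Ndc80: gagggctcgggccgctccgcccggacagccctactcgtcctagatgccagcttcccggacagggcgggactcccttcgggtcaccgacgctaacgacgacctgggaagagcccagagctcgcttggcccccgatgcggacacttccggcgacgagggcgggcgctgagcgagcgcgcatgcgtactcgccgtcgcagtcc
Nusap1: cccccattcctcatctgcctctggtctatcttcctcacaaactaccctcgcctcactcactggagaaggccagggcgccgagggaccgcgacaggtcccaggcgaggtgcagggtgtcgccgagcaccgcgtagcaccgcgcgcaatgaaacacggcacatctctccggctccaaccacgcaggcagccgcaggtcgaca
The TTTGAA of Cdc20 begins 18 bases before the start, between CCAAT matches at 53 and 8 bases. Cdk1 holds TTTGAA at 71 and 15 bases, beside CCAAT at 80 and 48 bases. The promoters of Top2a and Ube2c each hold TTTGAA close to the start, at 23 and 29 bases, behind a run of CCAAT matches. In Kif23 and Ndc80 the match lies after the start, at positions 3 and 30 of the transcript, and the Ndc80 window has no CCAAT. Mki67 holds its motifs farther out, with TTTGAA at 116 and 98 bases and CCAAT from 188 to 141. Nusap1 holds neither motif. Among the 29 measured genes with a window, the median genotype difference was 0.13 log2 units for the 22 with TTTGAA and 0.13 for the 7 without it.

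Over all probe sets, the arrays correlated pairwise at 0.966 to 0.991. The sort markers were present, with Kit at 7.50 to 9.06 and Slamf1, which encodes CD150, at 6.12 to 6.92 against array medians of 3.69 to 3.82. The 7 measured lineage genes averaged 4.01 to 4.28, below these markers but above the array medians. Ly6a, which encodes Sca-1, was not analysed here. Gtf2a1, the targeted gene, was higher in TFIIA nc/nc by 1.14 log2 units (SE 0.50), with overlapping groups. Its 95% interval ran from 0.02 to 2.27. It did not pass over all genes (limma, Benjamini-Hochberg adjusted p = 0.946, unadjusted p = 0.0474). Whether the change of the cleavage site alters its transcript was not tested. Endothelial transcripts set 3 arrays apart: 20 such genes averaged 6.78 (TFIIA nc/nc replicate 1), 7.13 (TFIIA nc/nc replicate 2) and 6.92 (wild-type replicate 1), and 4.13 to 4.32 elsewhere. The samples are sorted bulk populations, in which a change in the share of cycling cells and a change in transcript per cycling cell cannot be told apart.

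No gene of G2 or mitosis passed the test of TFIIA nc/nc against wild type. The adjusted p was 0.946 to 0.998 for the 34 genes (limma, Benjamini-Hochberg over 12393 genes), where 0.00807% of all genes passed, namely Galc alone, which was lower (0.00% higher and 0.00807% lower). At an unadjusted limma p under 0.05 there was 1 of the 34, Ndc80, against 4.43% of all genes, a share close to this background. The 3 TFIIA nc/nc values lay clear of the 4 wild-type values in 1 of 34 genes, again Ndc80, against 6.30% of all genes (3.23% higher and 3.07% lower in TFIIA nc/nc). Differences are given throughout in log2 units, positive where TFIIA nc/nc was higher, and ran from −0.26 for Nusap1 to 0.34 for Bub1. They were above 0 in 24 of 34 genes, 70.6%, against 48.1% of all genes, and their median was 0.12 against −0.01 over all genes. Brighter genes had a higher median. It was 0.03 over the 6196 genes above the median level and 0.05 over the 4137 at log2 6 or more on at least 3 arrays. The share above 0 among such genes was not counted. The 34 genes share the same 7 arrays, so the count of 24 is not 34 separate observations.

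The arrays set bounds on these differences, which depended on the fit for some genes. With all 7 arrays and no covariate, the 95% interval of the difference lay within a 2-fold change either way for 34 of 34 genes, against 91.9% of all genes, and within 1.5-fold for 23. Of the 34 genes 32 had a mean level above log2 6. The share within 2-fold among genes of like level was not counted. Each interval stands for its own gene and is not adjusted for the number of genes. The lowest bound was −0.80, for Ube2c, and the highest 0.92, for Cenpe. Under 22 other settings the intervals of 25 genes lay within 2-fold throughout, and those of Bub1, Cenpe, Cenpf, Kif20a, Kif23, Nusap1, Plk1, Top2a and Ube2c passed that limit in at least 1 setting. With an array left out the highest bound was 1.19, for Cenpe without TFIIA nc/nc replicate 1, and the lowest −1.04, for Ube2c without TFIIA nc/nc replicate 2. With the 4 arrays of low endothelial level, the widest case, 27 of 34 lay within 2-fold and the bounds reached −1.39 and 1.56. The pooled SD within genotypes was 0.07 for Ckap2, 0.48 for Cenpe and 0.20 at the median of the 34, against 0.25 over all genes. In every array each of the 34 probe sets read above at least 52.4% of genes, so none lay among the dimmest signals.

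**Figure D1:**
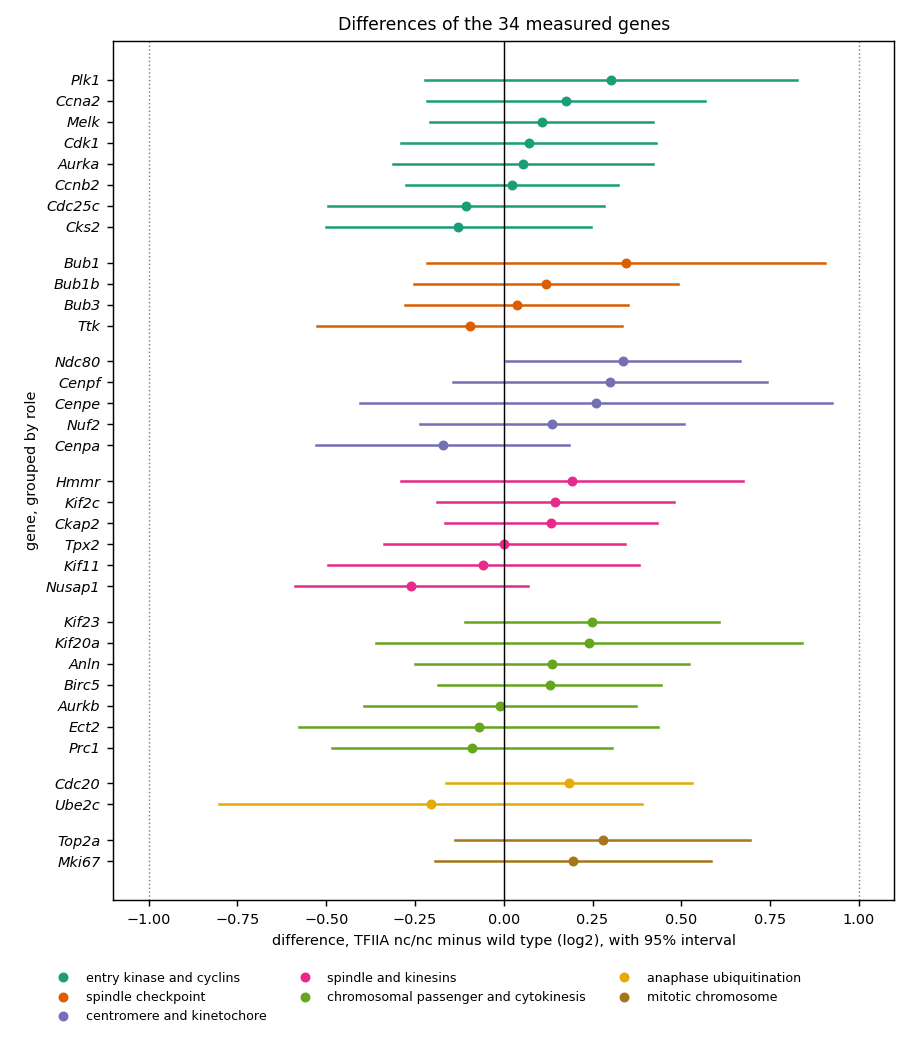
Difference in log2 units between TFIIA nc/nc and wild type (positive where TFIIA nc/nc was higher) for each of the 34 genes, as a point with its 95% interval from limma, grouped by role; dotted lines mark a 2-fold change either way. The interval of Ndc80 alone leaves out 0, and in this fit none reaches either dotted line.

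None of the genes of mitotic entry passed, and their groups overlapped throughout. Cdk1, the kinase that starts mitosis, read 9.13, 9.33 and 9.05 in TFIIA nc/nc and 9.19, 9.16, 9.23 and 8.82 in wild type. The groups overlapped, and the difference was 0.07 (SE 0.16), with a 95% interval from −0.29 to 0.43. Leaving out 1 array moved it between −0.02, without wild-type replicate 4, and 0.13, without TFIIA nc/nc replicate 3. Its partner Ccnb2, cyclin B2, differed by 0.02 (SE 0.13), with means of 8.81 ± 0.07 (SD, n = 3) and 8.78 ± 0.08 (SD, n = 4), among the steadiest values of the list. Ccna2, cyclin A2, had means of 9.02 ± 0.11 (SD, n = 3) for TFIIA nc/nc and 8.85 ± 0.26 (SD, n = 4) for wild type. Replicate 1 of the wild type was low at 8.52 and replicate 4 high at 9.15. Plk1, the Polo kinase that acts from centrosome to cytokinesis, read 5.84, 6.42 and 5.60 in TFIIA nc/nc and 5.80, 5.42, 5.40 and 5.98 in wild type. Only TFIIA nc/nc replicate 2 lay above every wild-type sample, and the difference of 0.30 (SE 0.23) was within the spread. It was 0.07 without that sample and 0.48 without replicate 3. The spindle-pole kinase Aurka differed by 0.05 (SE 0.16) and the kinase Melk by 0.11 (SE 0.14). Cdc25c, the phosphatase that activates Cdk1, and Cks2, a small subunit of Cdk complexes, differed by −0.11 (SE 0.17) and −0.13 (SE 0.17). Of the 8 measured genes of entry 6 had a difference above 0 and none passed, with a median of 0.06.

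The spindle checkpoint holds anaphase until each kinetochore is attached. Bub1, its kinase at the kinetochore, had the highest difference of the list at 0.34 (SE 0.25). It read 7.41, 7.97 and 7.88 in TFIIA nc/nc and 7.24, 7.50, 6.95 and 7.95 in wild type. Wild-type replicate 4 lay above TFIIA nc/nc replicates 1 and 3, so the groups overlapped. The difference was 0.19 without wild-type replicate 3, 0.52 without wild-type replicate 4 and 0.52 without TFIIA nc/nc replicate 1. Another Bub1 probe set, dimmer with a wild-type mean of 4.22, differed by −0.17 (SE 0.19). Bub1b, the BubR1 pseudokinase that inhibits Cdc20, differed by 0.12 (SE 0.17). Bub3, the adaptor of both, differed by 0.04 (SE 0.14), and the kinase Ttk, also called Mps1, by −0.10 (SE 0.19).

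Ndc80, the microtubule-binding arm of the kinetochore, was the single gene whose groups did not overlap. Its levels were 6.42, 6.50 and 6.45 in TFIIA nc/nc and 5.95, 6.24, 6.29 and 6.01 in wild type. The 3 TFIIA nc/nc samples lay close together and above the highest wild-type sample, by a small margin. The difference was 0.34 (SE 0.15), with a 95% interval from 0.01 to 0.67, and did not pass over all genes (limma, Benjamini-Hochberg adjusted p = 0.946, unadjusted p = 0.0467). It stayed between 0.27 and 0.39 under the 22 other settings. Nuf2, which forms a dimer with Ndc80, read 7.62, 7.91 and 7.77 in TFIIA nc/nc and 7.83, 7.44, 7.46 and 7.80 in wild type, with a difference of 0.14 (SE 0.17) and overlapping groups. With an array left out it ran from 0.06, without TFIIA nc/nc replicate 2, to 0.21, without TFIIA nc/nc replicate 1.

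The centromere genes went both ways. Cenpf, a large protein of the outer kinetochore, read 7.06, 7.61 and 7.24 in TFIIA nc/nc and 7.15, 7.10, 6.62 and 7.16 in wild type. The wild-type samples were tight apart from replicate 3, and the difference was 0.30 (SE 0.20). It was 0.17 without that sample and 0.15 without TFIIA nc/nc replicate 2. Cenpe, the kinesin that carries chromosomes to the metaphase plate, read 6.34, 6.84 and 6.75 in TFIIA nc/nc and 6.85, 6.72, 5.58 and 6.38 in wild type. It had the widest range of the list, 1.28 log2 units, again through wild-type replicate 3. Its difference of 0.26 (SE 0.30) became −0.01 without that sample, 0.79 (SE 0.23) with the sex measure as a covariate and 0.66 (SE 0.28) with pooled samples only, and did not pass in either. Cenpa, the histone H3 variant that marks centromeres, read 8.525, 8.654 and 8.616 in TFIIA nc/nc and 8.576, 8.606, 8.896 and 9.003 in wild type. Wild-type replicates 3 and 4 were high and replicates 1 and 2 lay among the TFIIA nc/nc samples, for a difference of −0.17 (SE 0.16), which was −0.09 without replicate 4.

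**Figure D2:**
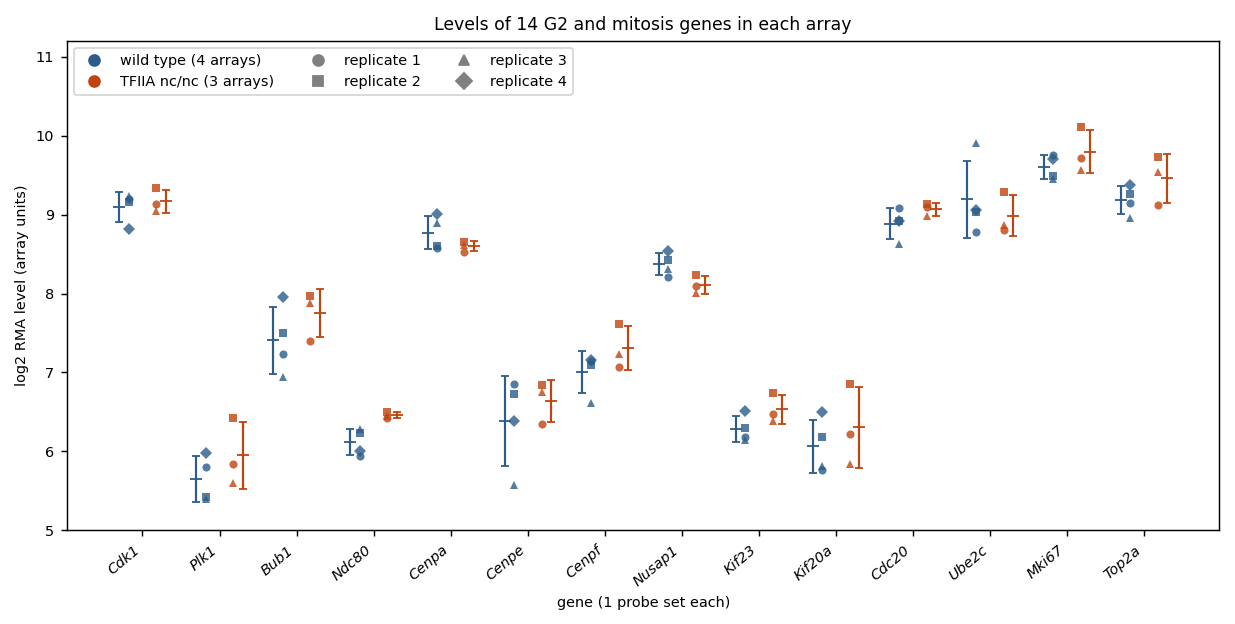
log2 RMA levels of 14 genes in each array, wild type in blue (4 arrays) and TFIIA nc/nc in orange (3 arrays), with the marker shape for the replicate number and the mean ± SD beside the points. The groups overlap for each gene shown but Ndc80, and heights are to be compared within a gene, since probe sets differ in response.

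Among genes of the spindle, Nusap1, which bundles microtubules around chromosomes, had the lowest difference. It read 8.09, 8.23 and 8.01 in TFIIA nc/nc and 8.21, 8.42, 8.31 and 8.53 in wild type. TFIIA nc/nc replicate 2 lay just above wild-type replicate 1, and the difference was −0.26 (SE 0.14), with a 95% interval from −0.59 to 0.07. Another Nusap1 probe set, dimmer with a wild-type mean of 2.94, differed by −0.01 (SE 0.18), and the mean of both by −0.13. The kinesin motor Kif11, which pushes spindle poles apart, differed by −0.06 (SE 0.19) and the depolymerising kinesin Kif2c by 0.15 (SE 0.15). Tpx2, which activates Aurora A on the spindle, differed by 0.00 (SE 0.15), the hyaluronan-binding spindle protein Hmmr by 0.19 (SE 0.21) and Ckap2 by 0.13 (SE 0.13).

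Cytokinesis is prepared by the chromosomal passenger complex and by the motors of the central spindle. Kif23, the kinesin of the centralspindlin complex, read 6.47, 6.74 and 6.38 in TFIIA nc/nc and 6.18, 6.30, 6.15 and 6.51 in wild type. Wild-type replicate 4 lay above TFIIA nc/nc replicates 1 and 3, and the difference was 0.25 (SE 0.16), or 0.14 without TFIIA nc/nc replicate 2. Kif20a, a kinesin of the late spindle, read 6.22, 6.85 and 5.84 in TFIIA nc/nc and 5.77, 6.18, 5.82 and 6.49 in wild type. Its difference of 0.24 (SE 0.27) turned to −0.03 when TFIIA nc/nc replicate 2 was left out and was 0.47 when replicate 3 was. The passenger kinase Aurkb differed by −0.01 (SE 0.17) and its partner Birc5, survivin, by 0.13 (SE 0.14). The bundling protein Prc1, the contractile-ring scaffold Anln and the RhoA activator Ect2 differed by −0.09, 0.14 and −0.07.

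Cdc20 and Ube2c serve the anaphase-promoting complex, as its activator and as its ubiquitin-conjugating enzyme, and differed in opposite directions. Cdc20 read 9.10, 9.13 and 8.98 in TFIIA nc/nc and 9.09, 8.92, 8.62 and 8.91 in wild type, a difference of 0.18 (SE 0.15) that was 0.10 without wild-type replicate 3. Ube2c read 8.81, 9.28 and 8.87 in TFIIA nc/nc and 8.78, 9.03, 9.90 and 9.05 in wild type. Wild-type replicate 3 stood highest for Ube2c and lowest for Cdc20. The Ube2c difference of −0.21 (SE 0.26) was 0.03 without that sample and −0.35 without TFIIA nc/nc replicate 2.

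The proliferation marker Mki67, which coats mitotic chromosomes, read 9.72, 10.10 and 9.57 in TFIIA nc/nc and 9.76, 9.49, 9.45 and 9.71 in wild type. Its difference was 0.19 (SE 0.17), with a 95% interval from −0.20 to 0.58. Top2a, the topoisomerase that untangles sister chromatids, read 9.12, 9.72 and 9.54 in TFIIA nc/nc and 9.15, 9.26, 8.95 and 9.37 in wild type, and its difference was 0.28 (SE 0.19). For both genes the highest array was TFIIA nc/nc replicate 2, while replicate 1 lay within the wild-type range. Without replicate 2 the differences were 0.04 for Mki67 and 0.15 for Top2a. Without replicate 3 that of Mki67 was 0.31, and without replicate 1 that of Top2a was 0.45.

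A single sample stood out for these genes. TFIIA nc/nc replicate 2 was the highest of the 7 arrays for 19 of the 34 genes and the lowest for 0, and it was the highest for 8.50% of all genes. It read above all 4 wild-type samples in 20 of 34 genes, while TFIIA nc/nc replicates 1 and 3 did so in 4 and 3, against 13.9%, 18.7% and 16.3% of all genes. The median of the 34 deviations from each gene's own mean over the arrays was 0.19 in TFIIA nc/nc replicate 2, −0.06 in replicate 1 and −0.01 in replicate 3. In wild type it was −0.04, −0.05, −0.12 and 0.04 in replicates 1 to 4. Wild-type replicate 3 was the lowest array for 11 of the 34 genes, against 21.1% of all genes, among them Bub1, Cenpe, Cenpf and Top2a, and the highest for 4, Cdc25c, Cks2, Ttk and Ube2c. Without TFIIA nc/nc replicate 2 the median difference of the 34 genes was 0.02 in place of 0.12, and 18 of 34 differences were above 0.

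**Figure D3:**
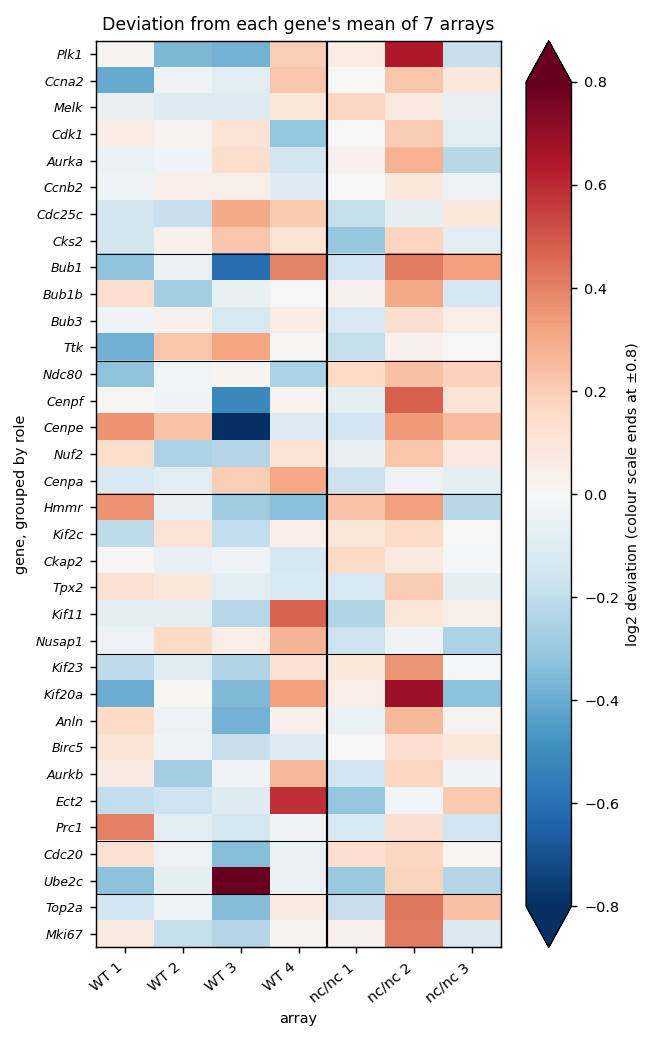
Deviation of each of the 34 genes from its own mean over the 7 arrays, in log2 units, with arrays in columns and genes in rows grouped by role. The column of TFIIA nc/nc replicate 2 is red for 30 of 34 genes, and that of TFIIA nc/nc replicate 1 for 14.

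Values of other cell types are set beside these. The 3 arrays with high endothelial transcripts had mean levels of the 34 genes of 7.60, 7.88 and 7.61, in the order given above, and the other 4 arrays 7.64, 7.61, 7.54 and 7.72. Among the 4 arrays of low endothelial level, of which 1 is TFIIA nc/nc, the median difference was 0.00, and with the endothelial mean as a covariate it was 0.06. Liver parenchyma genes, 14 measured of 16, averaged 3.43 to 4.76 in TFIIA nc/nc and 3.34 to 4.01 in wild type, with the highest value in TFIIA nc/nc replicate 2. Macrophage genes, 17 of 17, averaged 3.80 to 4.84 in TFIIA nc/nc and 2.82 to 4.19 in wild type, lowest in wild-type replicate 3. Erythroid genes, 15 of 18, averaged 4.11 to 4.40 in TFIIA nc/nc and 3.89 to 4.49 in wild type. Stem cell genes, 10 of 12, averaged 7.23 to 7.54 in TFIIA nc/nc and 7.44 to 7.79 in wild type. The parts of liver, macrophage and erythroid transcripts in the values of TFIIA nc/nc replicate 2 were not tested.

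Genes of S phase and DNA replication, the list nearest in function, were likewise without a call. Of 42 measured genes 31 had a difference above 0, 73.8% against 48.1% of all genes, and 0 passed. The median was 0.07, against −0.01 over all genes and 0.05 over those at log2 6 or more on at least 3 arrays. At an unadjusted limma p under 0.05, met by 4.43% of all genes, there was 1, Orc1 of the origin recognition complex, at 0.39 (SE 0.16). Tyms, thymidylate synthase, followed at 0.45 (SE 0.24) with overlapping groups. The groups did not overlap in 2 of the 42 genes, Orc1 and Orc6, both higher in TFIIA nc/nc. Among all genes 3.23% were higher and 3.07% lower in this way. Orc6 differed by 0.20 (SE 0.13). The array that stood out for the mitotic genes did not do so here, since TFIIA nc/nc replicate 2 was the highest array for 4 of 42 replication genes, 9.52%, and wild-type replicate 4 for 16. The mean of the 42 genes was 7.70, 7.83 and 7.88 in TFIIA nc/nc and 7.59, 7.75, 7.72 and 7.92 in wild type. The difference between the lists was described and not tested.

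Further genes of the pathway, 106 measured of 141 in 7 lists, had a median difference of 0.01, with 54 above 0 and 52 below, and 0 passed. The unadjusted limma p was under 0.05 for 4 of them, with Zwilch and Zwint higher and Cenpm and Kifc1 lower, against 2.02% higher and 2.41% lower among all genes. The groups did not overlap in 10 of the 106 genes, 9.43%, against 6.30% of all genes. These were Anapc1, Cdc16, Ncapg, Mad2l1, Dlgap5, Chek1, Mastl and E2f8, higher in TFIIA nc/nc, and Cenpm and Kifc1, lower. Among 22 other centromere and kinetochore genes, Zwilch, of the complex that recruits dynein to kinetochores, differed by 0.45 (SE 0.18) and Cenpm by −0.37 (SE 0.16). Zwilch read 6.77, 6.80 and 7.03 in TFIIA nc/nc and 6.40, 6.39, 6.09 and 6.78 in wild type, so that wild-type replicate 4 overlapped. Among 19 other genes of spindle and cytokinesis, the kinesin Kifc1 differed by −0.47 (SE 0.19) and Dlgap5, a spindle assembly factor, by 0.31 (SE 0.14).

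Condensin, cohesin and the anaphase-promoting complex held no call. Of 7 condensin genes 5 had a difference above 0, with Ncapg at 0.18 (SE 0.14) and Ncaph2 at −0.16 (SE 0.18). Of 11 genes of cohesin, separase and securin 4 were above 0, with the cohesin loader Nipbl at −0.34 (SE 0.19) and Pttg1, securin, at 0.28 (SE 0.20). Of 15 genes of the anaphase-promoting complex 6 were above 0. Its subunit Anapc11 and its activator Fzr1, at the low levels of 5.18 and 4.21 in wild type, differed by −0.62 (SE 0.35) and −0.56 (SE 0.32).

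The regulators upstream of mitosis did not pass either. Of 18 genes that hold or release the G2 brake 8 had a difference above 0. Cdc25b, a phosphatase that opens entry to mitosis, differed by −0.40 (SE 0.18), and Mastl, the kinase that restrains the phosphatase PP2A in mitosis, by 0.43 (SE 0.23). Mastl read 4.70, 4.58 and 4.62 in TFIIA nc/nc and 4.42, 4.53, 3.56 and 4.31 in wild type, where replicate 3 was low. Of 14 regulators of G2 and M transcription 7 were above 0. Lin37, a MuvB subunit measured at 3.47 and 4.18 in the genotypes, differed by −0.71 (SE 0.32), and E2f8, a repressor of the E2F family, by 0.23 (SE 0.14).

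Other probe sets gave a further reading of 15 of the 34 genes. There were 24 of them, with differences from −0.17 to 0.32, and 0 passed or had an unadjusted limma p under 0.05. Of the 9 with a mean level of at least 5, 4 had the sign of the chosen probe set and 5 the opposite one. Ccna2 had the highest, 0.32 (SE 0.17) beside 0.18 for the chosen probe set. Cdc20 had −0.10 (SE 0.17) and 0.17 (SE 0.14) beside 0.18, and the other bright Kif11 and Cks2 probe sets differed by 0.14 (SE 0.18) and 0.08 (SE 0.14) beside −0.06 and −0.13. The sign of these small differences was thus not fixed within a gene.

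**Figure D4:**
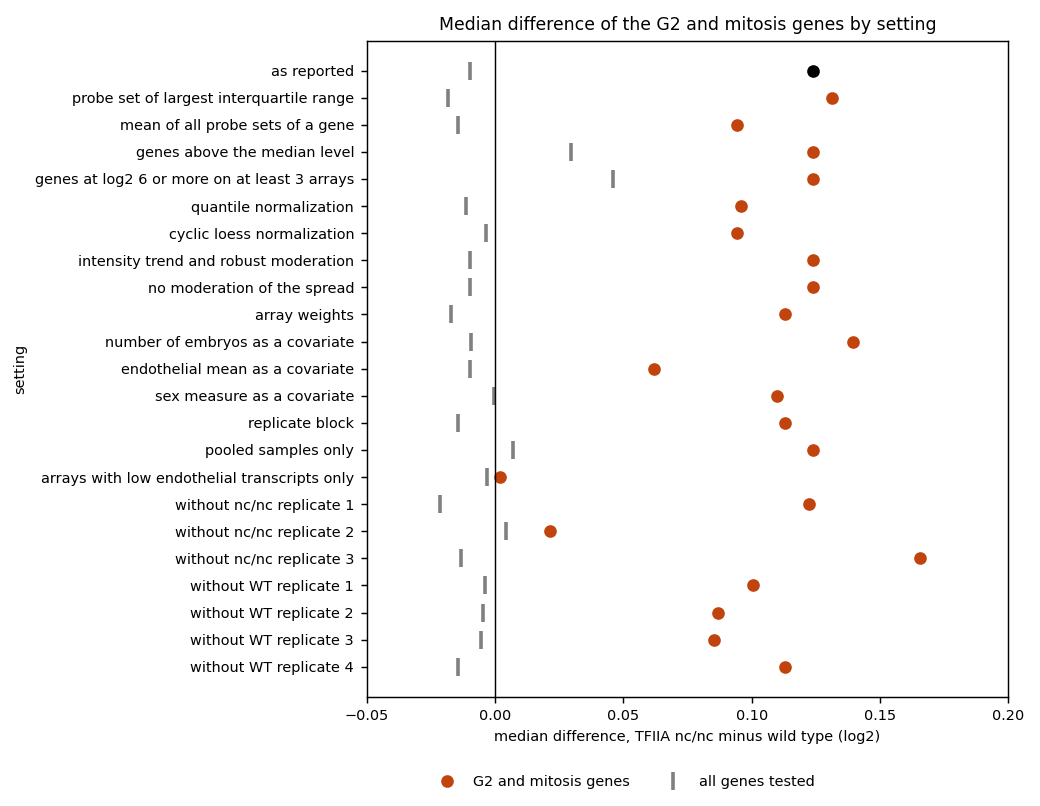
Median log2 difference of the G2 and mitosis genes between TFIIA nc/nc and wild type, as reported and under 22 other settings (points), with the median over all genes tested (grey bars). Most settings lie between 0.09 and 0.17, while the endothelial covariate gives 0.06, leaving out TFIIA nc/nc replicate 2 gives 0.02 and the 4 arrays of low endothelial level give 0.00.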

How the data were processed

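Total RNA of sorted cells was reverse transcribed, linearly amplified and labelled with a 3' IVT Express kit, 1 array per sample, per the labels' protocols. The deposited values are intensities per probe set that the authors made by RMA with Affymetrix Expression Console. The software is named per the submitters' processing notes, and its version is not given in the sources. RMA brings arrays to similar distributions and compresses dim signals. The values were on a linear scale, so log2 was taken without a pseudocount. Of 22690 probe sets 64 controls were left out. Gene names are those of GEO's platform annotation, brought up to date with a GRCm38.p6 RefSeq table (12369 of 12393 genes matched).

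A linear model was fitted with limma 3.58.1 (lmFit and eBayes; R 4.3.3) to all 22626 probe sets and 7 arrays, without covariates. The 2-sided p-values of 12393 genes, 1 probe set each, were adjusted by Benjamini-Hochberg at 0.05. P-values set the genotype difference against the spread between these samples, moderated over all probe sets. Samples of single embryos, all wild type, and of pooled embryos enter this spread alike. The number of arrays limits the precision. On 10 simulated data sets of this comparison (12393 genes, 200 changed), 56.5% of genes changed by 1 log2 unit and 93.8% of those changed by 2 were recovered, with 7.7 false calls per set. The genes and lists were chosen with earlier results of these data known.

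Values in every array are given for Ndc80, Kif23, Nusap1, Cdk1, Mki67, Top2a, Plk1, Cdc20 and, by rule, the 5 smallest p, the 3 highest and 3 lowest differences and the 3 widest ranges. In each further list the 2 genes of smallest p are named. Nuf2 (as the partner of Ndc80), Zwint and the further genes whose groups did not overlap were added after their values were seen. Other settings covered the probe set, dim signals, normalization, moderation, array weights, embryo number, endothelial level, sex, the replicate number and each array. Plots were drawn with matplotlib 3.10.9.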

Additional observations from a re-analysis of the deposited data

Results flagged for a closer look

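A wild-type sample far from the other 3 was looked for in 81 values, where chance gives about 1 in 20, and 6 were found, 4 of them in replicate 3. Cenpf was 6.616 in that sample, with 7.10 to 7.16 in the others. The mean of the 5 centromere and kinetochore genes was 6.966 there against 7.221 to 7.271, and that of the 6 spindle genes and kinesins 7.204 against 7.360 to 7.369. The mean of the 2 genes of anaphase ubiquitination was high in the same sample, 9.262 against 8.931 to 8.982, through Ube2c. Ect2 was 7.959 in wild-type replicate 4 against 7.178 to 7.271. Endothelial genes averaged 6.919 in wild-type replicate 1, and 4.149 to 4.324 in its 3 companions. These values share genes, so they are not separate observations.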

How the results depend on the processing

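No G2 or mitosis gene passed the threshold under any of 23 other settings, a threshold of 0.1 included, and the smallest adjusted p of such a gene was 0.423 (limma, Benjamini-Hochberg, Cenpe with pooled samples only). The median difference of these genes ranged from 0.0215 without TFIIA nc/nc replicate 2 to 0.166 without replicate 3, and was 0.0018 with the 4 arrays of low endothelial level, where the lone TFIIA nc/nc sample is assumed to vary like the wild type. Genes past the threshold over all genes numbered 1 to 3 with an array left out, 3 of them without wild-type replicate 1. They numbered 0 among genes above the median level, among those at log2 6 or more on at least 3 arrays, without moderation of the spread and with the low endothelial arrays. They numbered 2 with embryo number or the sex measure as a covariate and 3 with pooled samples only. The cause was not tested, save that the filters leave out genes before the test. The count of the 34 genes above 0 was 23 after quantile normalization and 22 after cyclic loess. Of 746 values of single genes under other settings 691 kept the direction and 55 did not.

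Differences of the opposite sign were as follows. With the largest interquartile range they were 0.1427 for Aurkb, −0.1007 for Cdc20, 0.216 for Kif11 and −0.0631 for Kif2c, and with the mean of probe sets 0.0655 for Aurkb and 0.1009 for Kif11. Quantile normalization gave −0.0154 for Tpx2, and cyclic loess −0.0258 for Tpx2 and −0.0074 for Ccnb2. Array weights gave 0.1023 for Aurkb and 0.0073 for Ect2. The endothelial covariate gave −0.0157 for Aurka, 0.0647 for Ect2, −0.0275 for Hmmr, −0.0603 for Tpx2 and 0.0293 for Ttk. The sex measure gave −0.0303 for Aurka and 0.0258 for Prc1, and pooled samples 0.0352 for Prc1. With the low endothelial arrays the values were −0.2065 for Aurka, −0.0221 for Bub1b, −0.0468 for Ccnb2, −0.0231 for Cdk1, 0.1025 for Ect2, −0.324 for Kif20a, −0.0245 for Melk, −0.0028 for Plk1 and −0.0316 for Tpx2. With an array left out the ranges were −0.1066 to 0.0751 for Aurkb, −0.1947 to 0.1144 for Ect2, −0.1409 to 0.0907 for Kif11, −0.0686 to 0.1799 for Aurka, −0.0188 to 0.1102 for Bub3, −0.0126 to 0.0534 for Ccnb2, −0.0239 to 0.1314 for Cdk1, −0.0341 to 0.4737 for Kif20a, −0.0997 to 0.0659 for Tpx2, −0.1773 to 0.0344 for Prc1, −0.0102 to 0.4157 for Cenpe and −0.3541 to 0.0312 for Ube2c.

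With the replicate number as a block, wild-type replicate 4 has no partner and leaves the estimate. Then 1 gene passed over all genes, 0 of the 34 did, and their median difference was 0.113. This replicate block gave 0.0751 for Aurkb, −0.0067 for Ccnb2, −0.0239 for Cdk1, 0.1144 for Ect2, 0.0907 for Kif11 and −0.0388 for Tpx2. Deviations of same-numbered samples correlated at 0.382, −0.193 and 0.105 across genes. No label pairs the numbers and the correlations were not all over 0.1, so the fit without the block is the one reported. Whether same-numbered samples share a litter or day is not given.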

Other observations

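The spacing of CCAAT matches was looked at after the promoter windows had been seen. A pair of CCAAT matches, on either strand, whose first letters lie 31 to 33 bases apart stood in 6 of 30 windows of G2 and mitosis genes, against 1.62% of windows of measured genes and 5.41% of windows of replication genes. The 6 genes are Ccnb1, Ccnb2, Cdk1, Aurka, Hmmr and Ube2c. At least 2 CCAAT matches, which a pair requires, stood in 53.3% of the windows against 14% of those of measured genes. Pairs were not compared among windows with equal numbers of CCAAT matches. TTTGAA stood only after the start in 10 of the 22 windows that hold it. These are counts of letters, described without a test.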
